A study of Mus musculus with 9 samples.

Results

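The levels of 10 marker genes of fibroblasts, hepatic stellate cells and pericytes were measured by RNA sequencing in 9 mouse liver tumors. They are Acta2, Tagln and Des of contractile cells, the receptors Pdgfra and Pdgfrb, the pericyte gene Rgs5, the fibroblast genes Fap, Dcn and Lum, and the stellate cell gene Lrat. They were chosen by name as markers of these cells, and all 10 were found among 52163 gene symbols. The value of a gene in a tumor was the sum of the FPKM of the rows that name it. FPKM is the number of fragments per kilobase of transcript, scaled to the mapped fragments of the library, so that levels of different genes can be compared per length.

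The tumors grew from Hepa1-6, a mouse hepatoma line, in the left liver lobe of male C57BL/6 mice aged 6 to 8 weeks, after implantation of pieces of a subcutaneous tumor. PBS (3 tumors) or an antibody to PD-1, RMP1-14 at 5 mg/kg, was given intraperitoneally every 4 days for 5 times, from day 10 to day 26. Tumors were collected on day 27, and among treated mice the groups were set by size, nonresponsive for the 3 largest and responsive for the 3 smallest tumors, with intermediate ones left out, so tumor size and response cannot be told apart. Each group holds tumors of this 1 line in 3 mice.

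Hepatic stellate cells lie between hepatocytes and sinusoidal endothelium, store vitamin A as retinyl esters made by Lrat, and turn into contractile, matrix-depositing myofibroblasts in injured liver. Pericytes wrap small vessels and depend on PDGF-B from endothelial cells acting on Pdgfrb. Fibroblasts of tumors make collagen fibers, on which the proteoglycans Dcn and Lum sit, and Fap is a surface protease of activated fibroblasts. Acta2, Tagln and Des serve the contractile apparatus of smooth muscle and myofibroblasts.

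Promoter sequences are shown for the contractile, pericyte and stellate cell genes whose levels are compared here. The CArG box, bound by serum response factor, is the known element of smooth muscle genes. RefSeq promoters (GRCm38.p6, from 250 bases before to 50 after the gene's start) were matched for 5 of the 10 genes, Acta2, Pdgfra, Des, Rgs5 and Lrat. No complete CArG box was in these 5 windows, and 1.63% of 32851 promoters held one. A box with at most 1 inner G or C was in 9.98% of promoters. It was found 2 times in Acta2 and 1 time in Lrat, and its letters are in capitals below. Counted from the gene's start, its first base lay at -84 and -34 in Acta2 (minus strand, chr19:34255438-34255467 and chr19:34255388-34255417) and at -223 in Lrat (minus strand, chr3:82904178-82904207). The 250 bases before the start of Rgs5 (plus strand, chr1:169655251-169655500) and of Des (plus strand, chr1:75360042-75360291) held no such match. The letters TATAAA, searched on both strands and present in 13.6% of promoters, were in none of the 5 windows. GGGCGG, present on either strand in 35.7%, was found 2 times in Des and 2 times in Lrat. A match is a description of letters and shows no binding.
Acta2, distal match: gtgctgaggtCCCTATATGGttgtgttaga
Acta2, proximal match: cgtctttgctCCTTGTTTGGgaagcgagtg
Lrat, match: cttctcaccgCCAAGAAAGGtgctccattc
Rgs5, upstream: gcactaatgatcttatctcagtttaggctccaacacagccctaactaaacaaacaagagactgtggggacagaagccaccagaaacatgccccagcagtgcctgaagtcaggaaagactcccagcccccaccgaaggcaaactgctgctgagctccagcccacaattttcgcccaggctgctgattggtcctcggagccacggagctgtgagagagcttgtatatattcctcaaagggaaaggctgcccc
Des, upstream: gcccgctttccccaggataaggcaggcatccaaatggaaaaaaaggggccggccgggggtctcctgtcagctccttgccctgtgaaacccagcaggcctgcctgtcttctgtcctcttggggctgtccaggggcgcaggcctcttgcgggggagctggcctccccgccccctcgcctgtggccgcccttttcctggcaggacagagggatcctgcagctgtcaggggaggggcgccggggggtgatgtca

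The tables give no fragment totals, so the absolute depth behind a value is unknown, and relative depth, read from steps between low FPKM values, was 0.933 to 1.07 times that of PBS tumor 1. Both ends are weakly determined. The most common ratio was held by 34 rows in nonresponsive tumor 2 (0.933), beside 29 for the second most common, and by 62 beside 47 in PBS tumor 3 (1.07). Rows without a gene name held from 19.2% of the summed FPKM in PBS tumor 3 to 81.5% in PBS tumor 1. Cufflinks gives a 95% interval for each value, whose median width to either side over the 9 tumors was 4.26% of the value for Dcn, 4.66% for Acta2, 14.9% for Lrat, 20.3% for Fap and 21.2% for Pdgfra. For all 10 genes the coefficient of variation between tumors, from 25.2% for Fap to 83.4% for Lum, was larger than this median. Tagln shared its row with Sidt2 in PBS tumor 1 and responsive tumor 3, and Pdgfra shared its row with Mir7025, a microRNA gene inside it, in all 9 tumors. The hepatoma marker Afp was above 0 in every tumor but ranged from 0.321 FPKM in nonresponsive tumor 1 and 0.646 in responsive tumor 1 to 56.5 in nonresponsive tumor 3. Genes of the pancreatic acinus summed to 1236 FPKM in nonresponsive tumor 2 and to at most 0.354 in the others.

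Dcn (decorin) was by far the most abundant of the 10 genes, with a mean of 864 FPKM over the 9 tumors, and was above the next gene in every tumor without overlap of their ranges. Acta2 (smooth muscle actin) followed with a mean of 155 FPKM, Lum (lumican) with 127 and Tagln (transgelin) with 74.5. Pdgfrb had a mean of 30.04 FPKM, Rgs5 of 25.9, Des (desmin) of 17.7 and Pdgfra of 11.6. Fap had a mean of 4.62 FPKM, and Lrat was the lowest, with a median of 2.12. Apart from Dcn, each gene's range over the tumors overlapped that of its neighbour in this order. Lum was above Tagln in 5 of the 9 tumors. The ratio of the highest to the lowest tumor was 2.06 for Fap, 2.41 for Dcn, 17.1 for Lum and 72.7 for Lrat. The lowest Lrat value, 0.0884 FPKM in PBS tumor 1, had a Cufflinks interval from 0.029 to 0.147.

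**Figure D1:**
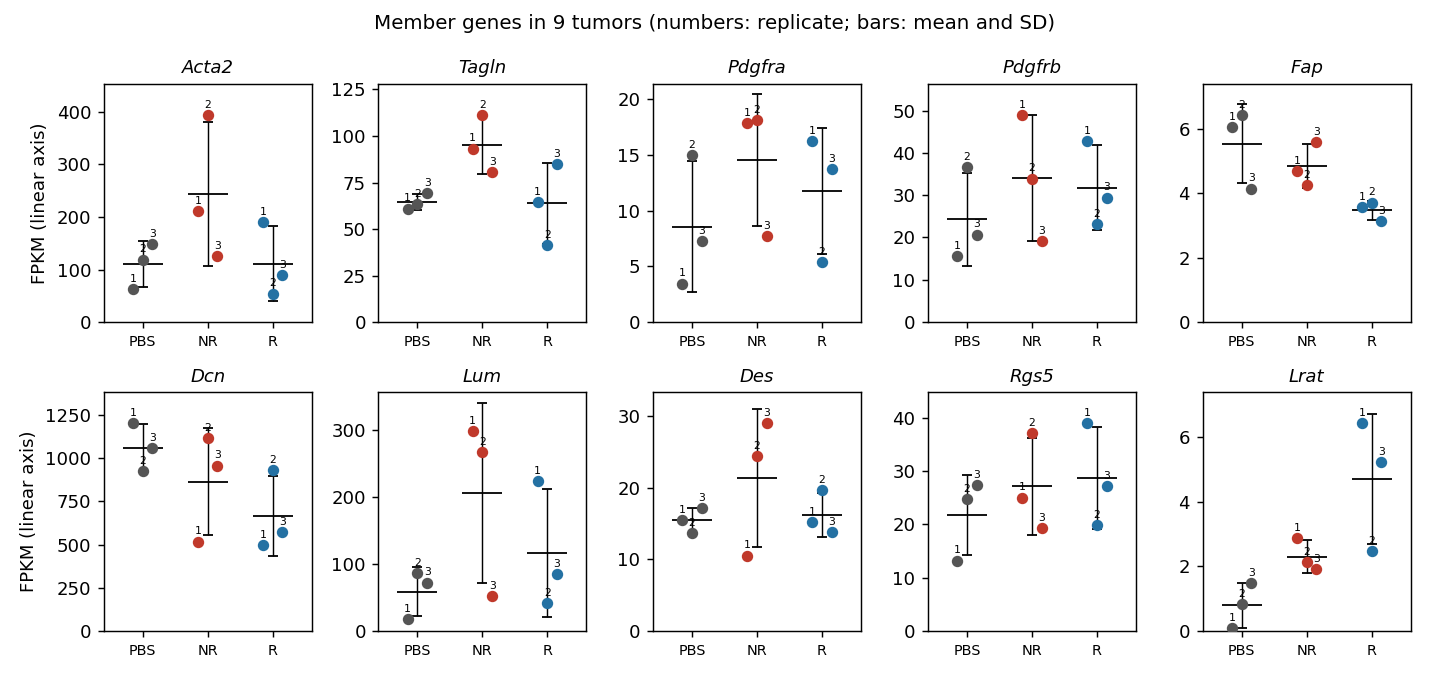
FPKM (linear axis) of the 10 genes in each tumor of the PBS, nonresponsive (NR) and responsive (R) groups, with the replicate number beside each point and bars for the mean and SD of 3 tumors. Lrat is higher in all responsive than in all PBS tumors, Fap is lowest in the responsive tumors, and nonresponsive tumors 1 and 2 and responsive tumor 1 stand high for Lum.

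None of the 10 genes passed an adjusted p of 0.05 in any of the 3 comparisons by limma on log2(FPKM + 1), and 4 of the 30 tests had an unadjusted p under 0.05. Lrat was higher in responsive and in nonresponsive than in PBS tumors, Tagln was higher in nonresponsive than in PBS tumors, and Fap was lower in responsive than in PBS tumors. Of responsive against nonresponsive tumors, 0 of 10 genes reached an unadjusted p under 0.05, beside 4.05% of 13845 features higher and 1.44% lower. Of responsive against PBS tumors, 1 of 10 was higher, beside 8.47% of 13852 features, and 1 was lower, beside 8.75%. In nonresponsive against PBS tumors 2 of 10 were higher, beside 1.51% of 13806 features, and 0 lower, beside 1.71%. Lrat is among the higher genes in both comparisons with PBS, and it met the filter for testing through the treated tumors. Its level in PBS tumors 1 and 2 was under 1 FPKM, so these counts are no independent support for Lrat. At an adjusted p under 0.05 the shares of all features called were 0.116%, 0.231% and 0.0797%. Both comparisons with PBS use the same 3 PBS tumors. Exact permutation of 3 against 3 tumors cannot give a two-sided p below 0.1, which is the value for Lrat, Tagln and Fap in these 4 tests.

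The median difference in log2(FPKM + 1) over the 10 genes was -0.34 for responsive minus nonresponsive tumors, beside -0.07 over all features tested. It was 0.23 for responsive minus PBS, beside -0.11, and 0.50 for nonresponsive minus PBS, beside -0.06. The mean was higher for 2 of the 10 genes in responsive against nonresponsive tumors, beside 42.6% of all features, for 6 in responsive against PBS tumors, beside 42.2%, and for 8 in nonresponsive against PBS tumors, beside 44.6%. Groups that did not overlap were seen for 0 genes higher (5.78% of features) and 1 lower (4.75%) in the first comparison, for 1 higher (11.6%) and 1 lower (16.4%) in the second, and for 2 higher (3.23%) and 0 lower (4.97%) in the third. Scaling each tumor to its summed FPKM of named rows moved the median of all features to -0.24 in both comparisons of responsive tumors. It also turned the split of unadjusted calls over all features from 561 higher and 199 lower to 304 and 563 for responsive against nonresponsive tumors, and from 1173 and 1212 to 918 and 2171 for responsive against PBS tumors. The directions of Rgs5 in the first and of Des in the second comparison flipped under that scaling.

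**Figure D2:**
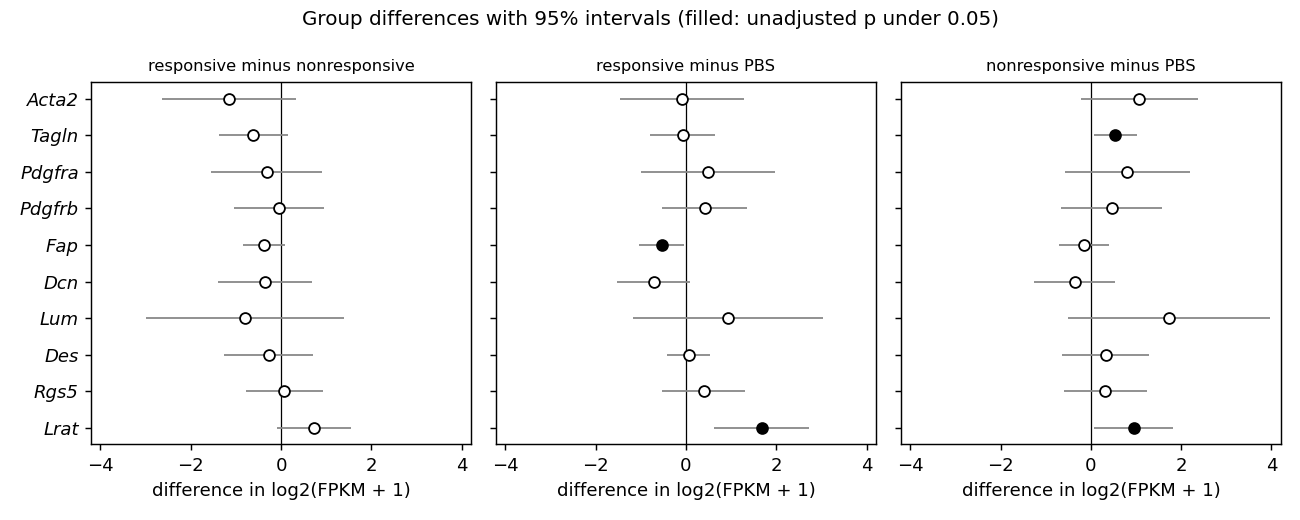
Differences in log2(FPKM + 1) between group means for the 10 genes, with 95% intervals from limma (3 against 3 tumors) and filled points for an unadjusted p under 0.05. Filled are Fap and Lrat for responsive minus PBS, and Tagln and Lrat for nonresponsive minus PBS. Lrat met the filter for testing against PBS through the treated tumors. All intervals of responsive minus nonresponsive include 0.

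Of the contractile genes, Acta2 is the actin that marks smooth muscle and activated stellate cells. Its FPKM was 63.0, 119 and 149 in PBS tumors, 212, 394 and 126 in nonresponsive tumors, and 190, 54.2 and 89.5 in responsive tumors. Nonresponsive tumors 1 and 2 lay above all others, and responsive tumor 2 was the lowest. The groups overlapped in every comparison, with a difference of 1.07 ± 0.52 (SE, n = 3 per group) on the log2 scale for nonresponsive minus PBS (limma adjusted p = 0.718, exact permutation p = 0.2) and -1.16 ± 0.61 for responsive minus nonresponsive (adjusted p = 0.910, exact p = 0.2). Responsive minus PBS was -0.09 with a 95% interval from -1.46 to 1.28. Without responsive tumor 1 the difference from nonresponsive tumors, and without nonresponsive tumor 3 that of nonresponsive from PBS tumors, had an unadjusted p of 0.033.

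Tagln, an actin-binding protein of smooth muscle, was at 61.0, 63.6 and 69.4 FPKM in PBS tumors, 93.2, 111 and 80.7 in nonresponsive tumors, and 64.6, 41.6 and 85.1 in responsive tumors. All nonresponsive tumors lay above all PBS tumors, while responsive tumors overlapped both. The difference of nonresponsive minus PBS was 0.54 ± 0.19 on the log2 scale (limma p = 0.033, adjusted p = 0.718, exact permutation p = 0.1). Leaving out any tumor but nonresponsive tumor 3 raised this unadjusted p above 0.05, to 0.10 at most, and with Tagln joined to Sidt2 and Pafah1b2 in all tumors it was 0.12. For responsive minus nonresponsive the difference was -0.62 ± 0.31 (limma adjusted p = 0.900, exact permutation p = 0.2).

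Des, the intermediate filament of muscle and stellate cells, was at 15.5, 13.7 and 17.2 FPKM in PBS tumors and 15.2, 19.7 and 13.8 in responsive tumors. In nonresponsive tumors it was 10.502, 24.5 and 29.0, so that this group held both the lowest and the highest tumor. No comparison reached an unadjusted p under 0.05, and responsive minus PBS was 0.06 with a 95% interval from -0.41 to 0.53. Without nonresponsive tumor 1, Des was higher in nonresponsive than in PBS tumors by 0.75 on the log2 scale (limma adjusted p = 1.00) and responsive minus nonresponsive became -0.70 (adjusted p = 0.426), both with an unadjusted p under 0.05. Skeletal muscle also uses desmin, and the 14 skeletal muscle genes found summed to 452 FPKM in nonresponsive tumor 3, 141 in PBS tumor 1, 82.1 in responsive tumor 2 and 8.95 to 23.3 in the others. That list had at most 1 gene with an unadjusted p under 0.05 in a comparison. Des and the mean of this list had r = 0.554 (exact permutation p = 0.12, adjusted p = 0.28 over 140 relations) and rho = 0.367 (p = 0.34, adjusted p = 0.53), with r = 0.217 without nonresponsive tumors 2 and 3.

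Of 18 other contractile and smooth muscle genes 16 were tested. Their median difference was -0.56 for responsive minus nonresponsive, with 0 higher and 5 lower at an unadjusted p under 0.05 and 0 past an adjusted p. Those 5 were Actg2, Cnn1, Tpm1, Tpm2 and Vcl. Cnn1 (calponin) was at 9.99, 30.1 and 8.99 FPKM in nonresponsive tumors and in responsive tumors at 6.08, 3.40 and 3.48, a difference of -1.54 ± 0.50 (limma adjusted p = 0.885). Vcl (vinculin, which anchors actin at adhesions) and Flna (filamin, which crosslinks actin) were lower in responsive than in PBS tumors by differences of -0.75 ± 0.16 and -0.83 ± 0.22 (adjusted p = 0.281 for both). In that comparison 4 genes were lower and 0 higher, and in nonresponsive against PBS tumors 0 reached an unadjusted p under 0.05. Tpm1, a tropomyosin, was the most abundant of the list with a mean of 171 FPKM.

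The receptors Pdgfra and Pdgfrb bind platelet-derived growth factors and mark fibroblasts and perivascular cells. Pdgfra was at 3.46, 14.97 and 7.28 FPKM in PBS tumors, 17.9, 18.1 and 7.71 in nonresponsive tumors, and 16.2, 5.38 and 13.7 in responsive tumors. Pdgfrb was at 15.6, 36.7 and 20.7, at 49.0, 33.9 and 19.1, and at 42.7, 23.2 and 29.4 FPKM in the same order. Each group held tumors with high and tumors with low levels of both receptors, and all groups overlapped. The largest of their group differences was 0.81 ± 0.56 for Pdgfra in nonresponsive minus PBS (limma adjusted p = 0.718, exact permutation p = 0.2). Pdgfrb differed by -0.04 between responsive and nonresponsive tumors, with a 95% interval from -1.04 to 0.96.

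All 9 genes listed as PDGF ligands and partners were tested, and their median difference was -0.13 for responsive minus nonresponsive, -0.26 for responsive minus PBS and 0.04 for nonresponsive minus PBS. A single one, Nrp1, a coreceptor for several growth factors, reached an unadjusted p under 0.05. It was at 9.05, 18.4 and 11.5 FPKM in PBS and 58.1, 25.7 and 21.6 in responsive tumors (difference 1.29 ± 0.45, limma adjusted p = 0.282). The ligand gene Pdgfa had a mean of 34.9 FPKM and Plat, the protease that activates PDGF-C, of 61.5.

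Rgs5, a regulator of G protein signaling in pericytes, was at 13.2, 24.8 and 27.4 FPKM in PBS tumors, 25.0, 37.2 and 19.2 in nonresponsive tumors and 38.9, 19.9 and 27.2 in responsive tumors. The groups overlapped, and no difference reached an unadjusted p under 0.05. Responsive minus nonresponsive was 0.08 with a 95% interval from -0.78 to 0.93. Of 13 other pericyte genes 12 were found and 9 or 10 tested, with a median difference of 0.16 for responsive minus nonresponsive, -0.07 for responsive minus PBS and -0.18 for nonresponsive minus PBS. At an unadjusted p under 0.05 Anpep, an aminopeptidase also found on myeloid cells, was higher in responsive than in PBS tumors (1.16 ± 0.41, limma, adjusted p = 0.282), and Mcam, an adhesion molecule of vessels, was lower (-0.63 ± 0.19, adjusted p = 0.281). The other comparisons had 0 such genes.

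Among the fibroblast genes, Dcn encodes a small leucine-rich proteoglycan that binds collagen and TGF-beta. It was at 1202, 924 and 1060 FPKM in PBS tumors, 517, 1116 and 958 in nonresponsive tumors, and 498, 931 and 572 in responsive tumors. Nonresponsive tumor 1 and responsive tumors 1 and 3 formed a low set of 3 between 498 and 572, and the other 6 lay between 924 and 1202. The difference was -0.72 ± 0.33 for responsive minus PBS (limma adjusted p = 0.305, exact permutation p = 0.2), and without responsive tumor 2 it was -0.98 (adjusted p = 0.159, unadjusted p under 0.05). The other differences were -0.35 ± 0.43 for responsive minus nonresponsive and -0.36 ± 0.37 for nonresponsive minus PBS.

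The same 3 tumors had the lowest sums over the 8 genes of the hepatoma and fetal liver list, at 47.6, 47.7 and 84.8 FPKM against 115 to 287 in the others. Top2a, a topoisomerase of dividing cells, was at 10.05, 15.05 and 51.3 FPKM in these tumors and at 57.55 to 148 in the others. Not every gene of the list was low there. Igf2, a fetal growth factor, was at 5.47, 6.13 and 0.771 FPKM in nonresponsive tumor 1 and responsive tumors 1 and 3 and at 0.805 to 5.197 in the others, and H19, a fetal noncoding RNA, was at 17.6, 11.03 and 3.01 FPKM in them and at 2.87 to 39.3 in the others. Krt19, an epithelial keratin of the mesothelial list, was at 1.47, 5.82 and 51.6 FPKM in these tumors and at 58.9 to 212 in the others. The hepatoma list had at most 1 gene of 7 tested, and the mesothelial list at most 1 of 4, with an unadjusted p under 0.05 in a comparison. Since the tumors fall into a low and a high set, no correlation is given for Dcn by itself, and the part of the tumor cells in its level was not tested. In bulk tissue, fewer cells of a type and less RNA per cell cannot be told apart.

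Lum, the proteoglycan gene next to Dcn on chromosome 10, with 46984 bases and 0 annotated genes between them (GENCODE M21, GRCm38), did not follow it. Its FPKM was 17.4, 86.6 and 72.1 in PBS tumors, 299, 267 and 52.2 in nonresponsive tumors, and 224, 41.2 and 84.7 in responsive tumors. Nonresponsive tumors 1 and 2 and responsive tumor 1 stood above all others, and PBS tumor 1 was the lowest. The difference of nonresponsive minus PBS was 1.73 ± 0.91 (limma adjusted p = 0.718, exact permutation p = 0.3) and became 2.53 without nonresponsive tumor 3 (adjusted p = 0.359, unadjusted p under 0.05). Responsive minus nonresponsive was -0.80 with a 95% interval from -2.996 to 1.40.

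Of 12 other small leucine-rich proteoglycan genes 7 were tested, and their median difference was 1.01 for nonresponsive minus PBS, 0.21 for responsive minus PBS and -0.57 for responsive minus nonresponsive. In nonresponsive against PBS tumors all 7 had a higher mean and 3, Fmod, Ogn and Podn, reached an unadjusted p under 0.05, with 0 past an adjusted p. Fmod (fibromodulin, which guides collagen fibril assembly) was at 1.75, 3.67 and 6.58 FPKM in PBS tumors, 38.0, 45.5 and 10.6 in nonresponsive tumors and 32.1, 2.12 and 12.9 in responsive tumors. Its difference was 2.58 ± 0.65 (limma adjusted p = 0.718). Bgn (biglycan) was the most abundant, with a mean of 565 FPKM. In the comparisons of responsive tumors 0 of these genes reached an unadjusted p under 0.05.

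Fap, the surface protease, was at 6.05, 6.44 and 4.15 FPKM in PBS tumors, 4.70, 4.25 and 5.58 in nonresponsive tumors, and 3.57, 3.72 and 3.13 in responsive tumors. All responsive tumors lay below all tumors of both other groups, so Fap is the gene counted above as lower without overlap in both comparisons. The Cufflinks intervals of single tumors did overlap between groups. They were 2.82 to 4.61 FPKM in responsive tumor 2, 3.39 to 5.10 in nonresponsive tumor 2 and 3.26 to 5.04 in PBS tumor 3. The difference was -0.53 ± 0.20 for responsive minus PBS (limma p = 0.040, adjusted p = 0.286, exact permutation p = 0.1) and -0.38 ± 0.19 for responsive minus nonresponsive (adjusted p = 0.900, exact p = 0.1). Leaving out any tumor but PBS tumor 3 raised the p of the first above 0.05, to 0.12 at most, and upper-quartile scaling to 0.062.

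Of 22 other fibroblast genes 21 were found and tested, with a median difference of 0.66 for nonresponsive minus PBS, 0.04 for responsive minus PBS and -0.61 for responsive minus nonresponsive. In nonresponsive against PBS tumors 20 had a higher mean and 4, Pi16, Fbln1, Clec3b and Dpt, reached an unadjusted p under 0.05. In responsive against nonresponsive tumors 4, Mfap5, Clec3b, Pi16 and Fbln2, were lower, and against PBS tumors 1, Dpt, was higher, with 0 past an adjusted p throughout. Pi16, a marker of adventitial fibroblasts, was at 1.58, 1.66 and 2.08 FPKM in PBS, 6.15, 7.30 and 3.80 in nonresponsive tumors and 2.095, 1.03 and 3.25 in responsive tumors (nonresponsive minus PBS 1.25 ± 0.26, limma adjusted p = 0.718). Mfap5, a microfibril protein, was at 23.2, 94.98 and 38.8 FPKM in nonresponsive tumors and in responsive tumors at 11.004, 5.49 and 7.51 (-2.37 ± 0.55, limma adjusted p = 0.885). The abundant Sparc and Col3a1, with means of 906 and 815 FPKM, reached no such p.

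Lrat, the enzyme that esterifies retinol for storage in stellate cells, was at 0.0884, 0.828 and 1.48 FPKM in PBS tumors, 2.88, 2.12 and 1.90 in nonresponsive tumors, and 6.42, 2.47 and 5.22 in responsive tumors. Every antibody-treated tumor was above every PBS tumor, while responsive tumor 2 lay within the nonresponsive range. PBS tumors 1 and 2 lay under 1 FPKM, so Lrat met the filter for testing against PBS through the treated tumors, which all passed it. The difference was 1.67 ± 0.43 for responsive minus PBS (limma p = 0.0088, adjusted p = 0.281, exact permutation p = 0.1), 0.94 ± 0.35 for nonresponsive minus PBS (adjusted p = 0.718, exact p = 0.1) and 0.73 ± 0.34 for responsive minus nonresponsive (adjusted p = 0.892, exact p = 0.2). The unadjusted p of responsive against PBS stayed between 0.0052 and 0.032 when each tumor was left out. That of nonresponsive against PBS rose above 0.05, to 0.10 at most, without any tumor but PBS tumor 3, and that of responsive against nonresponsive fell to 0.0087 without responsive tumor 2.

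Hepatocyte genes are given beside Lrat. The 14 hepatocyte genes found summed to 607, 4574 and 6945 FPKM in PBS tumors, 15370, 6888 and 4382 in nonresponsive tumors, and 26385, 12083 and 17497 in responsive tumors, and none was at 0 in any tumor. Of these 14 genes, 12 were higher in responsive than in PBS tumors at an unadjusted p under 0.05 (median difference 2.86), 5 when compared with nonresponsive tumors (1.40) and 0 in nonresponsive against PBS tumors (1.45). None of the 14 passed an adjusted p in any of the 3 comparisons. Alb (albumin) was at 173, 835 and 1259 FPKM in PBS tumors and 5041, 2576 and 4396 in responsive tumors. Lrat and the mean of the hepatocyte list had a Pearson r of 0.938 over the 9 tumors (exact permutation p = 7.4e-05, adjusted p = 0.0026 over 140 relations) and a Spearman rho of 0.950 (p = 0.00035, adjusted p = 0.012). The r was 0.837 without PBS tumor 1 and responsive tumor 1 and 0.869 after each group's mean was subtracted. The part of liver tissue in the level of Lrat was not tested.

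Of 17 other stellate cell genes 15 or 16 were tested, with a median difference of 0.74 for responsive minus PBS, 0.52 for nonresponsive minus PBS and 0.09 for responsive minus nonresponsive. At an unadjusted p under 0.05, Vipr1, Adamtsl2 and Cygb were higher and Timp1 lower in responsive than in PBS tumors. Cygb is a globin of stellate cells, and Timp1 inhibits matrix metalloproteinases. Ngfr, a neurotrophin receptor, was at 7.60, 6.39 and 8.04 FPKM in PBS, 2.596, 2.39 and 4.70 in nonresponsive tumors and 5.55, 8.81 and 5.05 in responsive tumors. It was lower in nonresponsive than in PBS tumors (-1.02 ± 0.26, limma adjusted p = 0.718) and higher in responsive ones than in these (0.83 ± 0.31, adjusted p = 0.885). No stellate cell gene passed an adjusted p. Colec11, the most abundant entry, shared a row with the ribosomal gene Rps7 in some tumors and is uncertain.

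Of 13 retinoid genes 12 were found and tested, with a median difference of 0.96 for responsive minus PBS, 0.42 for nonresponsive minus PBS and 0.30 for responsive minus nonresponsive. In responsive against PBS tumors 4, Rbp4, Dhrs3, Cyp26a1 and Aldh1a1, were higher and 1, Aldh1a2, lower at an unadjusted p under 0.05. Against nonresponsive tumors, Rbp4 and Aldh1a1 were also higher in responsive ones, and Crabp2, a retinoic acid carrier, was higher in nonresponsive than in PBS tumors (2.15 ± 0.40, limma, adjusted p = 0.718). Rbp4, the plasma retinol carrier that hepatocytes secrete, was at 126, 277 and 297 FPKM in PBS and 1174, 819 and 833 in responsive tumors (2.08 ± 0.41, limma adjusted p = 0.281). Stra6, the receptor for Rbp4, was at 0.621 and 0.688 FPKM in nonresponsive tumor 1 and responsive tumor 1, both in the low set of Dcn, at 76.3 in responsive tumor 3 and at 150 to 419 in the others.

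Some members shared a pattern over the tumors that did not follow the groups. These were Lum, Pdgfra, Pdgfrb, Rgs5 and Acta2, a set put together after the values were seen. Nonresponsive tumor 2 and responsive tumor 1 were among the 4 highest tumors for all 5 genes and nonresponsive tumor 1 for 4 of them. PBS tumor 1 and responsive tumor 2 were among the 4 lowest for all 5. Of the 36 pairs without Dcn, 12 had an unadjusted exact permutation p under 0.05 for Pearson's r, 7 a p under 0.05 after adjustment over all 45 pairs, and 2 such an adjusted p for Spearman's rho. Within the set of 5, Acta2 with Pdgfra, Rgs5 and Pdgfrb did not pass by r (exact permutation, adjusted p = 0.075, 0.075 and 0.20). Neither did Pdgfrb with Rgs5 (exact permutation, adjusted p = 0.11). The edge of the set is not sharp, as Acta2 with Pdgfrb inside it had r = 0.600. Outside it, Tagln had r = 0.782 with Acta2 but 0.364 with Pdgfrb. Lrat had 0.696 with Rgs5 but 0.299 with Acta2 (exact permutation, adjusted p = 0.068, 0.53, 0.12 and 0.64 for these 4). Pdgfra and Lum gave r = 0.928 (exact permutation p = 2.2e-05, adjusted p = 0.00099) and rho = 0.967 (p = 0.00017, adjusted p = 0.0074). The r was 0.831 without PBS tumor 1 and responsive tumor 2 and 0.912 after each group's mean was subtracted.

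Pdgfra and Pdgfrb gave r = 0.912 (exact permutation p = 0.0010, adjusted p = 0.021) and rho = 0.833 (p = 0.0083, adjusted p = 0.074), with r = 0.923 without the same 2 tumors. For Pdgfrb and Lum r was 0.894 (exact permutation p = 0.0014, adjusted p = 0.021) and rho 0.900 (p = 0.0020, adjusted p = 0.046), with r = 0.774 without PBS tumor 1 and nonresponsive tumor 1. For Acta2 and Lum r was 0.862 (exact permutation p = 0.0035, adjusted p = 0.032) and rho 0.833 (p = 0.0083, adjusted p = 0.074). The r of Acta2 and Lum was 0.892 without nonresponsive tumor 2 and responsive tumor 2. Acta2 and Des had r = 0.102 (exact permutation p = 0.80, adjusted p = 0.90) and rho = -0.0333 (p = 0.95, adjusted p = 0.98). Fap and Lrat ran in opposite directions, with r = -0.825 (exact permutation p = 0.0057, adjusted p = 0.032) and rho = -0.800 (p = 0.014, adjusted p = 0.10), and r was -0.662 without PBS tumors 1 and 2 and -0.545 after each group's mean was subtracted.

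**Figure D3:**
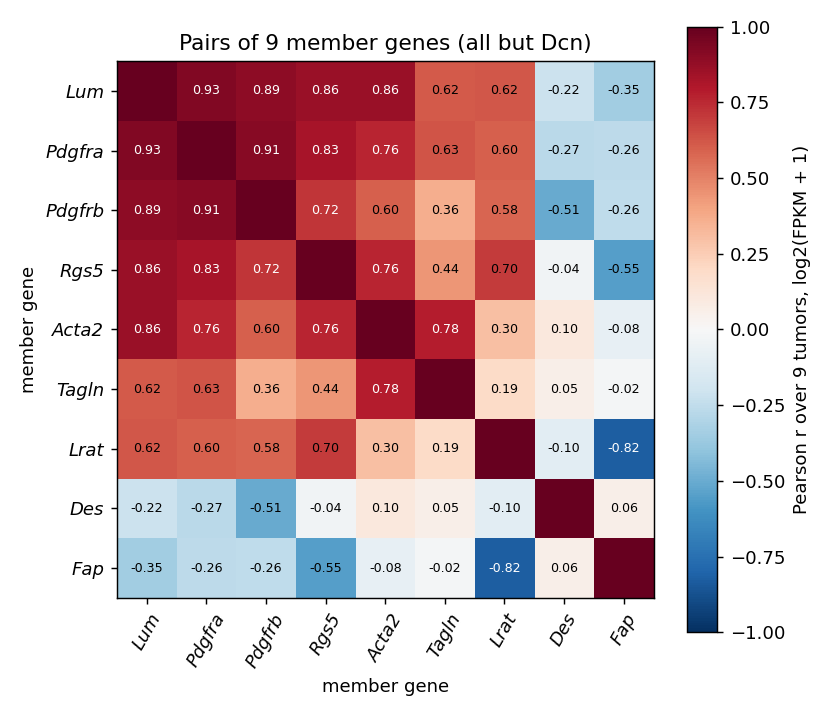
Pearson's r over 9 tumors of log2(FPKM + 1) for pairs of 9 of the genes. Dcn is left out because its levels fall into 2 sets. Lum, Pdgfra, Pdgfrb, Rgs5 and Acta2 form a block of positive values, picked after the values were seen. Tagln and Lrat also have positive r with each gene of the block, so its edge is not sharp. Des stands apart from it, and Fap and Lrat have r = -0.825.

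Markers of macrophages, endothelium and stroma moved with some genes of this block. Of 126 relations of lists to members other than Dcn, 16 passed an adjusted p of 0.05 by r and 9 by rho (exact permutation). Lum and the mean of 10 macrophage genes had r = 0.990 (exact permutation p = 2.5e-05, adjusted p = 0.0012 over 140 relations) and rho = 0.950 (p = 0.00035, adjusted p = 0.012), with r = 0.976 without PBS tumor 1 and nonresponsive tumor 1. Pdgfrb and the mean of 12 endothelial genes had r = 0.981 (exact permutation p = 1.7e-05, adjusted p = 0.0012) and rho = 0.983 (p = 5e-05, adjusted p = 0.0035), with r = 0.960 without the same 2 tumors. After each group's mean was subtracted the values were 0.994 and 0.979. With the macrophage list, Pdgfra had r = 0.933, Acta2 0.878, Pdgfrb 0.862 and Rgs5 0.836 (exact permutation, adjusted p = 0.0012, 0.026, 0.030 and 0.043), but by rho the adjusted p was 0.0035 for Pdgfra, 0.088 for Acta2 and Pdgfrb and 0.14 for Rgs5. With the endothelial list, Pdgfra had r = 0.931 and Lum 0.915 (exact permutation, adjusted p = 0.013 for both; by rho 0.043 and 0.021), while Rgs5 had 0.732 and Acta2 0.629 (adjusted p = 0.10 and 0.19; by rho 0.18 and 0.19). Without the 2 tumors farthest in the member, r for the macrophage list was 0.834 for Pdgfra, 0.876 for Acta2, 0.708 for Pdgfrb and 0.687 for Rgs5, and for the endothelial list 0.943 for Pdgfra, 0.815 for Lum, 0.524 for Rgs5 and 0.675 for Acta2. Macrophage genes summed to between 1563 and 4310 FPKM in PBS tumors, with ranges of 3483 to 8784 for nonresponsive and 3266 to 9824 for responsive tumors, and endothelial genes to 154 to 272, 179 to 375 and 207 to 299 FPKM, with no gene of either list at 0. Of the 10 macrophage genes C1qb and C1qc were higher in nonresponsive than in PBS tumors at an unadjusted p under 0.05, and 0 in the other comparisons. These complement genes shared a row in nonresponsive tumors 1 and 2, at 869 and 972 FPKM, so they are not separate calls, and that row entered the list's sum and mean for each gene. Of the 12 endothelial genes 0 reached such a p in any comparison. Des and the hepatoma and fetal liver list had r = 0.865 (exact permutation p = 0.0026, adjusted p = 0.026) and rho = 0.817 (p = 0.011, adjusted p = 0.088), with r = 0.646 without nonresponsive tumors 2 and 3. With the proteoglycan list r was 0.928 for Acta2 and 0.888 for Lum (exact permutation, adjusted p = 0.0078 and 0.025, by rho 0.026 and 0.088). Acta2 had 0.923 with the contractile and 0.876 with the fibroblast list (exact permutation, adjusted p = 0.014 and 0.018, by rho 0.065 and 0.088). Pdgfrb had 0.921 with the stellate cell list (exact permutation, adjusted p = 0.017, by rho 0.026). The mean of that list includes the uncertain Colec11, at 3985 FPKM in PBS tumor 1 and 7.98 in nonresponsive tumor 3. The relation without Colec11 was not tested. The part of these cell types in the levels of the members was not tested.

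**Figure D4:**
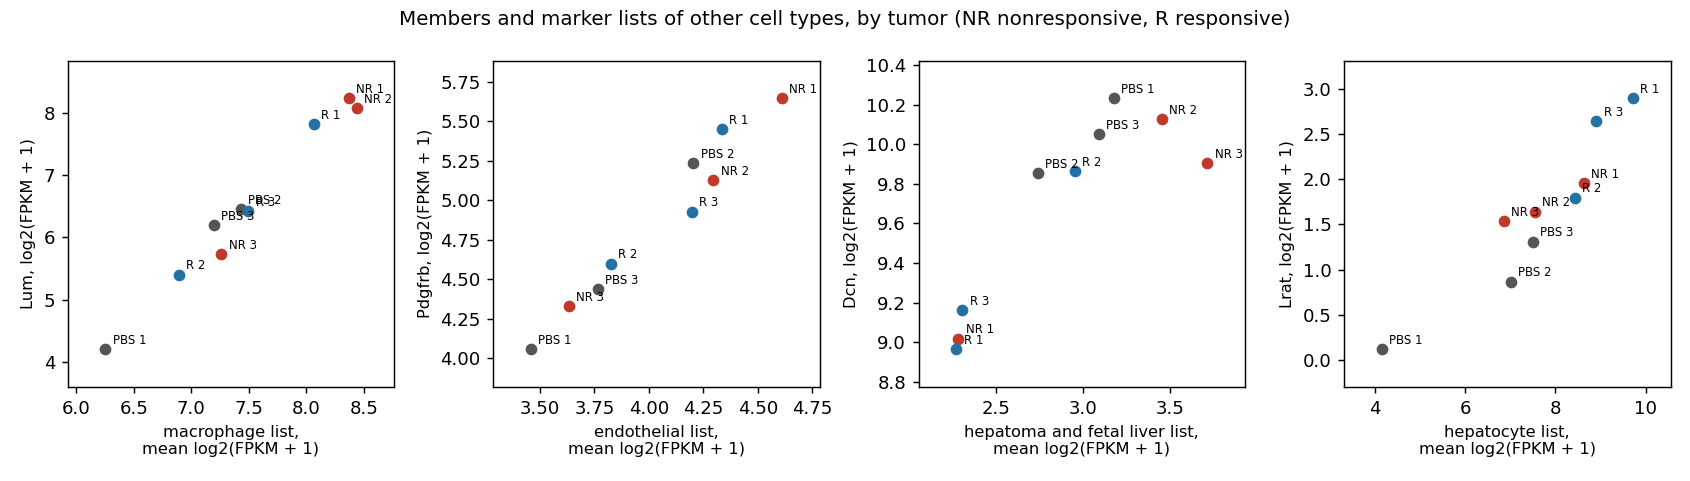
Level of Lum, Pdgfrb, Dcn and Lrat in each tumor (vertical, log2(FPKM + 1)) against the mean log2(FPKM + 1) of the macrophage, endothelial, hepatoma and fetal liver, and hepatocyte lists (horizontal). Lum, Pdgfrb and Lrat rise together with their lists (r = 0.990, 0.981 and 0.938), while the tumors fall into a low set of 3 and a high set of 6 for Dcn.

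Genes whose pattern was most like that of the members were sought among features with a mean of at least 5 FPKM, by Pearson's r over the 9 tumors. For the mean of Pdgfra, Pdgfrb and Rgs5 they were Il6st (r = 0.991), Klf2 (0.990), Gypc (0.988), Gpm6b (0.985) and Marcks (0.982). For the mean of Acta2, Tagln and Des they were Rnpep (0.955), Tmem106a (0.951), the smooth muscle myosin gene Myh11 (0.937), the monocyte chemokine receptor gene Ccr2 (0.936) and Rpgr (0.935). For the mean of Fap, Dcn and Lum, of which Dcn falls into 2 sets of tumors, they were Ccdc80 (0.969), Rin3 (0.956), Fstl1 (0.954), Ackr3 (0.953) and Dab2 (0.953). For Lrat they were Entpd5 (0.977), Ppp1r3c (0.974), Fads1 (0.974), Iqgap2 (0.972) and Gpt2 (0.971). These r values are a description over 9 libraries with no test.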

How the data were processed

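RNA of 9 whole Hepa1-6 tumors was sequenced by the authors (Novogene, TruSeq library, 1 µg of total RNA). The submitters' processing notes name TopHat2 2.1.1, Bowtie2 2.2.4 and build mm8. The deposited table of each tumor holds FPKM values from Cufflinks, normalized for transcript length and mapped fragments, with a 95% interval. Transcripts were assembled per tumor, so neighbouring genes can share a row in some tumors. The build behind the tables' coordinates could not be settled, so none of these is printed. A table of the whole series, which holds the authors' Cuffdiff fold changes and p-values between groups, was not used.

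The FPKM of all rows naming a symbol were summed in each tumor. Features reaching 1 FPKM in 3 or more of a comparison's 6 tumors were tested on log2(FPKM + 1) with limma 3.58.1 (R 4.3.3, lmFit, eBayes with trend), with Benjamini-Hochberg adjustment over all features. The scale understates changes of low genes. All 10 genes passed this filter in the 3 comparisons. The fit was checked on 20 simulated sets of responsive against nonresponsive values. Of features changed by 2 on the log2 scale, 88.38% reached an unadjusted and 45.75% an adjusted p under 0.05 by limma. Of unchanged features 5.23% reached an unadjusted p under 0.05. Many changes of that size thus missed an adjusted p with 3 tumors a group. Exact permutation tests were two-sided, over all pairings of 9 tumors for correlations (Python 3.11.15, numpy 2.4.6, scipy 1.17.1). Each tumor is 1 mouse.

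The members and lists were chosen with earlier results of these data known. The 15 lists were contractile and smooth muscle, pericyte, stellate cell, fibroblast, small leucine-rich proteoglycan, PDGF ligands and partners, retinoid handling, mesothelial, skeletal muscle, adipocyte, pancreatic acinar, endothelial, macrophage, hepatocyte, and hepatoma and fetal liver. Foxf1, Fn1, Rbpr2, Acta1 and Tf were not analysed here. Named were the 10 members, the genes sharing their rows, the 5 features most like each role group, and from each list the 2 most abundant genes and up to 3 with the smallest p under 0.05 and no overlap of groups, of which some are omitted. Any other gene was named after its values were seen. Alternatives were a pseudocount of 0.1, no filter, a filter at 5 FPKM, scaling to the upper quartile, scaling to the sum of named rows, 1 fit of all 9 tumors, a block for the replicate number, joined loci and leaving out each tumor.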

Additional observations from a re-analysis of the deposited data

How the results depend on the processing

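No member passed an adjusted p of 0.05 under any alternative, and the smallest adjusted p was 0.159, for Dcn and Lrat in responsive against PBS without responsive tumor 2. At an unadjusted p under 0.05, the members lower in responsive than in nonresponsive tumors numbered 0, and 2 under scaling to the sum of named rows (Tagln and Fap), 1 with joined loci (Tagln) and 0 to 1 without single tumors, and those higher 0 to 1 without single tumors. Against PBS tumors the 1 lower member became 0 with no filter, with the filter at 5, with upper-quartile scaling and with the replicate block, 2 under scaling to the sum of named rows (Fap and Dcn), and 0 to 1 without single tumors. The 1 higher member, Lrat, was lost only at the filter of 5. In this comparison that filter removed both Lrat and the lower member, Fap, from the test. In nonresponsive against PBS tumors the 2 higher members became 1 with the pseudocount of 0.1, the filter at 5, the fit of all 9 tumors or joined loci, and 0 with the replicate block, and numbered 0 to 3 without single tumors. The cause of these shifts was not tested, apart from the filter.

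Scaling to the sum of named rows turned Rgs5 in responsive minus nonresponsive to -0.12 and Des in responsive minus PBS to -0.086. Without single tumors the direction changed for Pdgfra (-0.69 to 0.12), Pdgfrb (-0.39 to 0.26) and Rgs5 (-0.16 to 0.32) in responsive minus nonresponsive, and for Acta2 (-0.57 to 0.33), Tagln (-0.31 to 0.20) and Des (-0.080 to 0.16) in responsive minus PBS. The tumors whose omission did this were responsive tumor 2 for Pdgfra, Pdgfrb, Acta2, Tagln and Des, nonresponsive tumors 1 and 2 for Pdgfrb, nonresponsive tumor 3 and responsive tumor 1 for Rgs5, PBS tumor 2 for Acta2 and Des, and PBS tumor 3 for Acta2. In nonresponsive minus PBS no member changed direction.

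The groups share replicate numbers, and the sample titles do not say whether these pair mice. The correlations that follow cannot settle it, because deviations from a mean of 3 tumors sum to 0. Deviations from the group means correlated between same-numbered tumors at 0.507, 0.0602 and -0.0265 for responsive and nonresponsive, at -0.314, -0.343 and 0.139 for responsive and PBS, and at -0.416, -0.0524 and -0.184 for nonresponsive and PBS, so not every tumor was most like its own number. With the replicate block the features with an unadjusted p under 0.05 went from 760 to 937, from 2385 to 948 and from 445 to 237. Depth is known only in relative terms, weakly so for some tumors, and 3 tumors a group limit the precision.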

Other observations

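The adipocyte and pancreatic acinar lists were measured beside the members. Pancreatic acinar genes, of which 0 of 8 passed the filter in any comparison, were led by Ctrb1 at 415 FPKM in nonresponsive tumor 2, the tumor with the highest Acta2, Tagln and Pdgfra, and Ctrb1 was listed at 0 in the other 8 tumors. Of 8 adipocyte genes 1 or 2 were tested in a comparison, with 0 at an unadjusted p under 0.05, and Fabp4 (a fatty acid carrier also made by endothelium and macrophages) had a mean of 47.2 FPKM. Acta2 and the mean log2(FPKM + 1) of the adipocyte list had r = 0.832 (exact permutation, adjusted p = 0.037, by rho 0.18). The r was 0.662 without nonresponsive tumor 2 and responsive tumor 2. Nonresponsive tumor 2 also had the highest mean of that list, 1.90. The part of admixed tissue in the level of Acta2 was not tested.

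The nearest patterns to single members were chosen after the values were seen. Over the 9 tumors Lum was most like Gpx3 (r = 0.994) and the myeloid genes Cd84 (0.990), Cd300lb (0.990) and Cd68 (0.988). Acta2 was most like Myh11 (0.980) and the fibrillar collagen gene Col11a1 (0.976), Pdgfra most like Cyp1b1 (0.990), and Pdgfrb like Ltbp2 (0.985) and the endothelial receptor gene Tie1 (0.984). These are descriptions over 9 libraries with no test.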
